A study of Mus musculus with 8 samples.

Results

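Cells take up, release and exchange amino acids through membrane carriers of the solute carrier (Slc) families. The genes described here are those whose symbols place them in 7 such families: Slc1 (glutamate and small neutral amino acids), Slc3 and Slc7 (heavy and light chains of exchangers, and cationic amino acid carriers), Slc6 (amino acids, but also taurine, creatine and monoamines), Slc36 (proton-coupled carriers), Slc38 (sodium-coupled carriers of glutamine and other neutral amino acids) and Slc43. The symbol rule found 63 of the 18193 genes with a probe set naming 1 gene, and 3 of these (Slc6a19os, Slc7a6os and Slc36a1os) are opposite-strand transcripts that encode no carrier. They left 60 transporter genes, each read from 1 probe set, the brightest on average over the 8 arrays. Of the 60, 38 had a mean of at least 5.27 on the log2 scale, the 40th percentile of all probe sets, and were tested as expressed, with 13369 genes in all. The 3 opposite-strand transcripts were tested too, and none of them passed limma's test in any comparison.

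In pancreatic islets amino acids are both fuel and signal. Glutamine and leucine feed beta cell metabolism and insulin release, arginine enters as a charged molecule and depolarises the membrane, and alpha cells respond to circulating amino acids with glucagon release and, when these are high, with growth. Leucine taken up by the L-type exchangers also activates the kinase mTORC1, and a shortage of amino acids activates the transcription factor ATF4, which raises many transporter genes.

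Pancreatic islets of male C57Bl/6 mice were profiled on 8 Affymetrix arrays, with 2 arrays in each of 4 groups. These were Irs2-/- mice given sodium tungstate in distilled drinking water for 21 days, Irs2-/- mice on plain distilled water, wild-type mice given tungstate and wild-type mice on plain water, all from 10 to 13 weeks of age. Irs2 is an adaptor of insulin and IGF-1 receptor signalling, its loss in mice leads to diabetes, and tungstate is an oral glucose-lowering salt. The sample labels give the tungstate solution as 2 mg/dl and the design text as 2 mg/ml, so its strength is not settled. The design text calls the 2 samples of a group independent, while the sources used here do not state how many mice made up a sample or how Irs2 was deleted.

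Values are log2 expression. Differences are given as log2 ± standard error (SE) from a limma fit over all groups, with p-values adjusted over all 13369 genes and a threshold of 0.05. Levels of different probe sets are not comparable with each other. Irs2 was 4.78 and 4.86 on the tungstate Irs2-/- arrays and 4.54 and 4.89 on the untreated ones, against 7.89 and 7.61 on the tungstate wild-type arrays and 7.91 and 7.73 on the untreated wild-type ones, so all 8 arrays matched their genotype. Insulin marks the islets, and Ins2, at the top of the scale, averaged 14.73 in untreated Irs2-/- and 14.75 in untreated wild-type islets. All 18 measured acinar markers (exocrine enzymes and regulators) were above the filter too, and their mean was 8.79 on untreated wild-type replicate 1 but 11.69 on replicate 2. The lymphocyte marker mean was 8.18 on untreated Irs2-/- replicate 1 and 7.34 on replicate 2. Both untreated replicates numbered 1 deviated from their group means together (r = 0.42 over genes), so the main count is also given without these 2 arrays.

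In untreated mice, Irs2-/- islets differed from wild-type islets in 10 of the 38 tested transporter genes, 5 higher and 5 lower. That is 26.3% of them, beside 16.8% of all tested genes. The median difference over the 38 was -0.04, beside -0.011 over all genes. Slc38a5, Slc1a5, Slc1a1, Slc36a2 and Slc38a1 rose, and Slc1a4, Slc7a2, Slc7a8, Slc7a5 and Slc3a2 fell. Slc36a2 was above the filter only through the untreated Irs2-/- arrays, so 9 of the 10 stand without that limit. Arrays of the 2 groups did not overlap for 22 of the 38, and the same held for 60.6% of all tested genes. Without both untreated arrays numbered 1 the count was 2, both higher, with 367 of all tested genes passing. In whole islets a smaller share of a cell type and less RNA per cell cannot be told apart.

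Slc38a5 (Entrez gene 209837, at chrX:8271381-8280179 on GRCm38.p6), also called SNAT5, carries glutamine, asparagine, histidine and serine with sodium, and in mouse islets it is known from alpha cells that proliferate when amino acids are high. It had the largest difference of the 38 transporter genes. It read 10.28 and 9.15 on the tungstate Irs2-/- arrays and 10.83 and 10.88 on the untreated Irs2-/- arrays, against 7.22 and 6.40 on the tungstate wild-type arrays and 7.07 and 7.14 on those given water. Every Irs2-/- array lay above every wild-type array. The genotype difference was 3.75 ± 0.37 in untreated mice, 13.4-fold (limma adjusted p = 0.00181), and 2.91 ± 0.37 in tungstate-treated mice, 7.49-fold (limma adjusted p = 0.0219). It was the only transporter gene past the test in treated mice (1 of 38, 2.63%, beside 1.02% of all genes, 0.636% higher and 0.389% lower). On tungstate 8 of the 38 genes had all Irs2-/- arrays above and 7 had them below wild type, and 48.1% of all genes did not overlap. The Slc38a5 call was lost without either tungstate wild-type array and without tungstate Irs2-/- replicate 1.

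Tungstate-treated Irs2-/- islets also lay above untreated wild-type islets in Slc38a5, by 2.61 ± 0.37 or 6.09-fold (limma adjusted p = 0.0378). This was the only one of the 38 past the test there (2.63%, beside 0.352% of all genes, 0.194% higher), and it was lost under 11 of 19 other settings. Within Irs2-/- islets the tungstate difference of Slc38a5 was -1.14 ± 0.37 (limma adjusted p = 0.24, 95% interval -1.99 to -0.29), and both tungstate arrays lay below both untreated ones. The mean of 6 measured alpha cell markers was 8.84 to 9.10 in tungstate and 8.68 to 8.92 in untreated Irs2-/- islets, against 8.88 to 9.03 in tungstate and 9 to 9.14 in untreated wild-type islets. In untreated mice 0 of these 6 rose and 1 fell by limma, beside 8.27% and 8.52% of all genes. Gcg, glucagon, differed by -0.13 ± 0.12 between the untreated genotypes (limma adjusted p = 0.498), but it read 14.15 to 14.39 where the highest value of the data was 14.75, so the probe set may be near saturation and says little about the amount of alpha cell RNA.

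**Figure D1:**
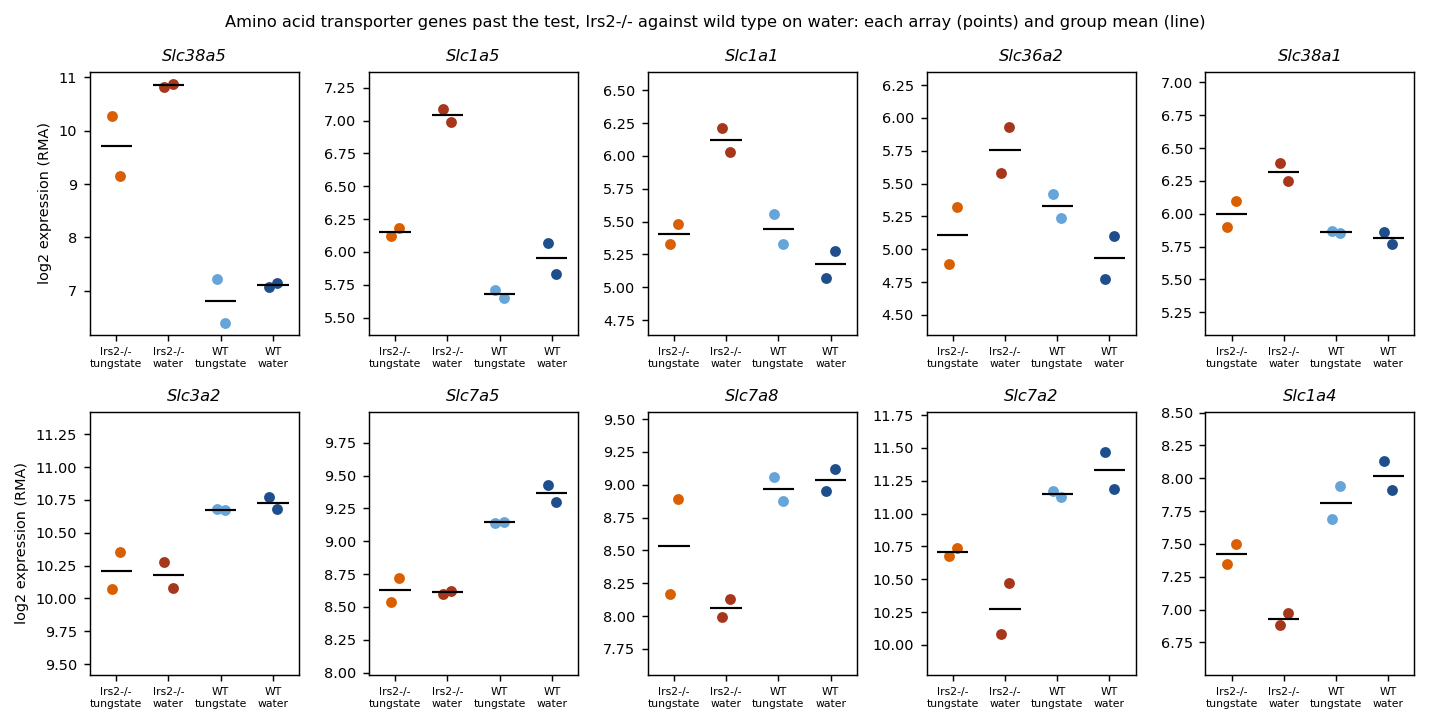
Log2 expression (vertical axis, own range in each panel) of the 10 transporter genes past the test for genotype on plain water, with a point for each array and a line at the group mean of 2 arrays. Slc38a5 stays above wild type in both Irs2-/- groups, Slc1a5 on tungstate lies near 6.15, and Slc7a5 is level between the Irs2-/- groups at 8.63 and 8.61.

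The promoters of 3 of these genes are shown because they stand for the largest rise (Slc38a5), a fall with a candidate amino acid response element (Slc1a4) and a fall without one (Slc7a8). They run from 250 bases before to 50 bases after the annotated start, from RefSeq on GRCm38.p6. Capitals mark matches to TGATGNAA, the core letters of the element bound by ATF4 with its C/EBP partners, searched on both strands. Slc38a5 lies at chrX:8271131-8271430 on the plus strand, Slc1a4 at chr11:20332664-20332963 on the minus strand and Slc7a8 at chr14:54781837-54782136 on the minus strand.
Slc38a5: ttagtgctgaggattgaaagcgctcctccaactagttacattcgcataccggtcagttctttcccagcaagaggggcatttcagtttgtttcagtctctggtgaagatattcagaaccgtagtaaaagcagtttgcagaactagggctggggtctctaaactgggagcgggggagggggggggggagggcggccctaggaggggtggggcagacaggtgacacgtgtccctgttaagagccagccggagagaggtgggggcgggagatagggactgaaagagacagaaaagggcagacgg
Slc1a4: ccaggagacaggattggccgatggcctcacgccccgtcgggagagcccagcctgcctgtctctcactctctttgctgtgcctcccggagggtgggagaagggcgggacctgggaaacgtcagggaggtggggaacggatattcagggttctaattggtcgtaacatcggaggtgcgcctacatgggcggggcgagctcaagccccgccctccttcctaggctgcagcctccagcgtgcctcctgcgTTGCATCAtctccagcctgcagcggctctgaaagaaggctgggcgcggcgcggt
Slc7a8: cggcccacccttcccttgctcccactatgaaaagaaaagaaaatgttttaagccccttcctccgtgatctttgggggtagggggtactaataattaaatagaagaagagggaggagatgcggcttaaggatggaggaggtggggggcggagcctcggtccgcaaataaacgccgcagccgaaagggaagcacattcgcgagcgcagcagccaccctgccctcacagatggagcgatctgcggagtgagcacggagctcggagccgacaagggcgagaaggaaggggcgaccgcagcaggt
The Slc1a4 promoter holds 1 match, which begins 4 bases before the annotated start. A promoter was listed for 43 of the transporter genes, and 4 of them held a match (9.3%), namely Slc1a4, Slc7a7, Slc7a11 and Slc6a21, beside 4.51% of 27025 genes. Among the 10 transporter genes past the test in untreated mice, 5 had a promoter and 1 held a match.

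The Slc1 family split between its neutral amino acid exchangers. Slc1a5 (ASCT2), an exchanger best known for glutamine uptake in growing cells, read 6.12 and 6.18 on the tungstate and 7.09 and 6.99 on the untreated Irs2-/- arrays, against 5.71 and 5.65 on wild-type arrays with tungstate and 6.07 and 5.83 on those with water. Untreated Irs2-/- islets stood above the 6 other arrays. The gene rose by 1.10 ± 0.12 without Irs2 in untreated mice (limma adjusted p = 0.00266), a call that held under all 18 other settings. Its second probe set, under the filter, gave 0.34 ± 0.10. Slc1a4 (ASCT1), which exchanges alanine, serine, cysteine and threonine, read 7.35 and 7.50 on the tungstate and 6.88 and 6.97 on the untreated Irs2-/- arrays, against 7.69 and 7.94 on wild-type arrays with tungstate and 8.13 and 7.91 on those with water. It fell by 1.09 ± 0.14 in untreated mice (limma adjusted p = 0.00371), and its 2 further probe sets differed by -1.03 ± 0.15 and -0.52 ± 0.12. The 2 exchangers thus moved in opposite directions in the same samples.

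Slc1a1 (EAAC1), a carrier of glutamate and aspartate that also takes up cysteine, was 5.33 and 5.48 on the tungstate and 6.21 and 6.03 on the untreated Irs2-/- arrays, against 5.56 and 5.33 on wild-type arrays with tungstate and 5.07 and 5.28 on those with water. Untreated Irs2-/- islets were again above the 6 other arrays, and the difference was 0.95 ± 0.14 (limma adjusted p = 0.00661). Of its further probe sets, both with means under the filter, 1 differed by 0.67 ± 0.24 and the other by 0.12 ± 0.14. The glutamate carriers Slc1a3 (-0.11) and Slc1a7 (-0.06) did not pass, and Slc1a2 and Slc1a6 were under the filter.

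The L-type exchangers, which bring leucine and other large neutral amino acids into the cell as dimers of a light chain with the heavy chain 4F2hc, were lower without Irs2 in untreated mice for the heavy chain and both light chains LAT1 and LAT2. Slc3a2, the gene of 4F2hc, read 10.07 and 10.35 on the tungstate and 10.28 and 10.08 on the untreated Irs2-/- arrays, against 10.68 and 10.67 on wild-type arrays with tungstate and 10.77 and 10.68 on those with water. Slc7a5, the light chain LAT1, read 8.54 and 8.72 on the tungstate and 8.60 and 8.62 on the untreated Irs2-/- arrays, against 9.14 and 9.15 on wild-type arrays with tungstate and 9.43 and 9.30 on those with water. For both genes the 4 Irs2-/- arrays lay below the 4 wild-type arrays. In untreated mice Slc7a5 fell by 0.76 ± 0.12 (limma adjusted p = 0.00755) and Slc3a2 by 0.54 ± 0.14 (limma adjusted p = 0.033). The Slc3a2 call was lost under 9 of 19 other settings, among them the removal of any 1 of the 4 untreated arrays.

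In treated mice the genotype difference was -0.51 ± 0.12 for Slc7a5 (limma adjusted p = 0.0851, 95% interval -0.78 to -0.25) and -0.46 ± 0.14 for Slc3a2 (limma adjusted p = 0.144, 95% interval -0.77 to -0.15). Tungstate against water within Irs2-/- islets gave 0.02 ± 0.12 for Slc7a5 and 0.03 ± 0.14 for Slc3a2, with 95% intervals of -0.25 to 0.29 and -0.28 to 0.34. Slc7a8, the light chain LAT2, had a different spread. It read 8.17 and 8.89 on the tungstate and 7.99 and 8.13 on the untreated Irs2-/- arrays, against 9.06 and 8.88 on wild-type arrays with tungstate and 8.95 and 9.12 on those with water, and fell by 0.98 ± 0.22 in untreated mice (limma adjusted p = 0.0235). Tungstate Irs2-/- replicate 2, at 8.89, was among the wild-type values while replicate 1 was near the untreated Irs2-/- arrays. The untreated call was lost without any 1 of the 4 untreated arrays. The mean level of the 12 beta cell markers was 11.42 on that replicate 2 and 10.83 on replicate 1, and its part in the split was not tested.

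Other partners of heavy chains did not pass: Slc7a6 (0.04) and Slc7a7 (0.10), which exchange cationic for neutral amino acids, and the second heavy chain gene Slc3a1 (-0.15 in untreated mice and -0.59 in treated mice, limma adjusted p = 0.549 and 0.112). A second Slc7a7 probe set, under the filter, gave 0.59 ± 0.19 in untreated and 0.48 ± 0.19 in treated mice. The second Slc7a6 probe set gave -0.03 ± 0.12 in untreated mice. Slc7a11, the cystine-glutamate exchanger xCT and an ATF4 target, had a mean of 4.94, under the filter, and read 4.94 and 5.00 in tungstate and 5.01 and 5.05 in untreated Irs2-/- islets, against 4.85 and 5.04 in tungstate and 4.78 and 4.88 in untreated wild-type islets. Slc43a2 (LAT4), a carrier of large neutral amino acids that needs no heavy chain, differed by 0.01 ± 0.13 between the untreated genotypes, with a 95% interval of -0.29 to 0.31 on the probe set used. Its 2 other probe sets gave -0.25 ± 0.10 and, under the filter, -0.91 ± 0.32. Its relative Slc43a1 (LAT3) was under the filter.

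Among the cationic amino acid carriers, Slc7a2 (CAT2), which takes up arginine, lysine and ornithine, read 10.68 and 10.74 on the tungstate and 10.08 and 10.47 on the untreated Irs2-/- arrays, against 11.17 and 11.13 on wild-type arrays with tungstate and 11.47 and 11.19 on those with water. All Irs2-/- arrays were below all wild-type arrays, with the untreated ones lowest. The untreated difference was -1.06 ± 0.16 (limma adjusted p = 0.00702), and 3 further probe sets gave -1.10, -0.95 and -1.27. Slc7a1 (CAT1), the widespread arginine carrier, differed by -0.32 ± 0.14 (limma adjusted p = 0.158). Slc7a3 (-0.03), Slc7a4 (0.29) and Slc7a14 (0.16), relatives of these carriers, did not pass either.

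Of the 9 tested Slc38 genes, Slc38a1 (SNAT1), a glutamine carrier of neurons and dividing cells, rose beside Slc38a5. It read 5.90 and 6.10 on the tungstate and 6.39 and 6.25 on the untreated Irs2-/- arrays, against 5.87 and 5.85 on wild-type arrays with tungstate and 5.86 and 5.77 on those with water, a difference of 0.51 ± 0.12 in untreated mice (limma adjusted p = 0.027) that was lost under 8 of 18 other settings, each single wild-type array left out among them. Its second probe set read 7.59 and 6.47 on the untreated Irs2-/- arrays, against 5.50 and 4.75 on the wild-type arrays with water, a difference of 1.90 ± 0.36, and it differed by -1.80 ± 0.36 with tungstate in Irs2-/- islets, against -0.32 for the first. The 2 probe sets thus disagree on the size. Slc38a2 (SNAT2), the carrier that amino acid shortage induces in many cells, did not pass, at -0.56 ± 0.23 (limma adjusted p = 0.132). Its 2 other probe sets gave -0.76 ± 0.15 and -0.45 ± 0.23, of the same sign. Slc38a4 (-0.24), Slc38a3 (0.29), the lysosomal arginine sensor gene Slc38a9 (-0.09), Slc38a10 (0.20), Slc38a6 (-0.19) and Slc38a7 (-0.06) did not pass on the probe sets used. All of these but Slc38a7 had other probe sets, which gave other values between the untreated genotypes. For Slc38a4 a second one, with a mean of 9.69, gave 0.82 ± 0.16, the opposite sign. For Slc38a10 6 others gave 0.42 to 1.02, the highest at 1.02 ± 0.17. For Slc38a9 4 others above the filter gave -0.18 to 0.48, and 2 under it gave 0.60 and 0.55. The second probe sets of Slc38a3 and Slc38a6, both under the filter, gave -0.01 ± 0.15 and 0.08 ± 0.13. The direction of Slc38a4, Slc38a9, Slc38a3 and Slc38a6 therefore depends on the probe set.

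Slc36a2, a proton-coupled carrier of glycine, proline and alanine, read 4.89 and 5.32 on the tungstate and 5.58 and 5.93 on the untreated Irs2-/- arrays, against 5.42 and 5.24 on wild-type arrays with tungstate and 4.77 and 5.10 on those with water. Its difference in untreated mice was 0.82 ± 0.20 (limma adjusted p = 0.0291), and it was lost under 8 of 18 other settings, the acinar covariate and each single untreated array left out among them. Its mean of 5.28 lay just inside the filter of 5.27, as did that of Slc3a1 (5.28), while Slc36a3 (5.23) and Slc6a3 (5.23) lay just outside. Over the 6 arrays other than untreated Irs2-/- it averaged 5.12, so it was tested only through the group where it is high. Its call is then no support, and 9 of the 10 genes passed the filter without that group. Slc36a1 (-0.09) and Slc36a4 (-0.26), carriers of lysosomes and endosomes, did not pass.

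Of the 8 tested Slc6 genes none passed in any comparison. They included the taurine carrier Slc6a6 (-0.15 ± 0.12 in untreated mice), the creatine carrier Slc6a8 (-0.20), the glycine carrier Slc6a9 (-0.01 ± 0.15), the proline carrier Slc6a7 (0.03), the vesicular neutral amino acid carrier Slc6a17 (0.16), the noradrenaline carrier Slc6a2 (-0.13), and Slc6a18 (0.17) and Slc6a19 (0.15), neutral amino acid carriers known from gut and kidney. The 22 genes under the filter had means between 3.69 and 5.23, and none of them passed when limma was run with no filter, where 0 of the 22 had an unadjusted p under 0.05 in untreated mice. Outside the 10 genes that passed, 28 tested genes remained, and in 25 of them no difference reached 0.5 in any of the 5 comparisons of 2 groups on the probe sets used. Of 27 other probe sets above the filter, from 14 of these genes, 6 differed by over 0.5 between the untreated genotypes, from Slc38a2, Slc38a4, Slc38a10 and Slc7a14, and 9 had the opposite sign to the one used. The largest on the probe sets used was Slc43a3, 0.91 ± 0.20 higher in Irs2-/- islets under tungstate (limma adjusted p = 0.0777). Slc43a3 is known for carrying purine bases rather than amino acids.

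**Figure D2:**
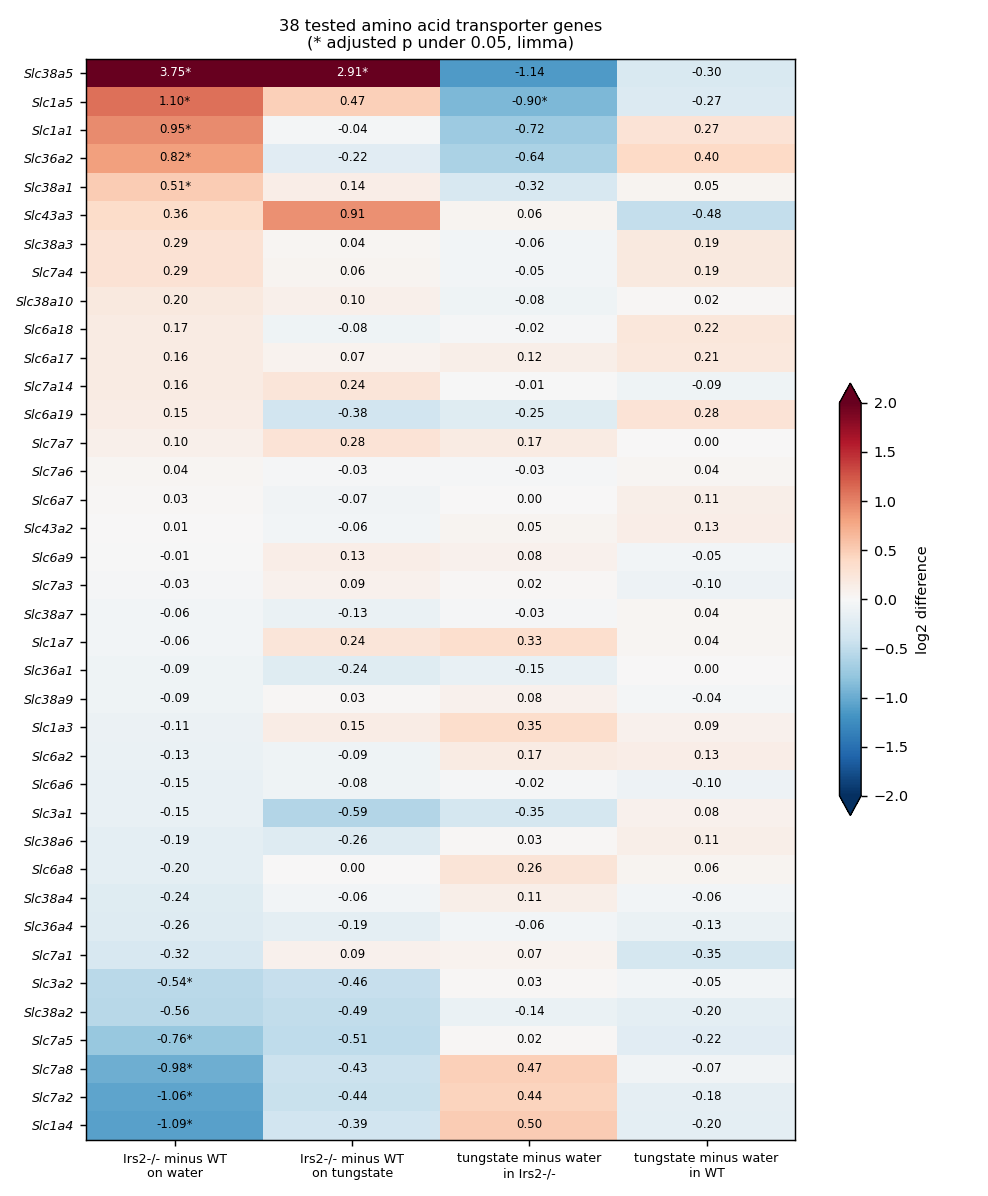
Log2 differences of the 38 tested transporter genes (rows, ordered by the first column) in 4 comparisons (columns), coloured from blue (lower) to red (higher), with an asterisk at a limma adjusted p under 0.05. Asterisks stand on 10 genes for Irs2-/- against wild type on water, on Slc38a5 for the same comparison on tungstate, on Slc1a5 for tungstate in Irs2-/- islets, and on none for tungstate in wild-type islets.

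Tungstate in Irs2-/- islets changed 1 of 38 transporter genes (2.63%, beside 0.494% of all genes, 0.471% lower). In 4 of the 38 genes both tungstate arrays lay above and in 7 below the untreated ones, and 40.5% of all genes did not overlap. Slc1a5 fell by 0.90 ± 0.12 (limma adjusted p = 0.0326), to 6.15 in tungstate-treated, against 7.04 in untreated Irs2-/- islets. The second Slc1a5 probe set gave -0.13 ± 0.10. The call was lost under 8 of 18 other settings, with an adjusted p between 0.0205 and 0.175. Slc1a1 differed by -0.72 ± 0.14 (limma adjusted p = 0.091). This comparison shares the untreated Irs2-/- arrays with the genotype comparison, so values are given side by side and no overlap is read from them.

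Tungstate in wild-type islets gave 0 of 38 genes past limma's test, with 2 at an unadjusted p under 0.05, and 0 of all 13369 genes (0%), of which 364 had an unadjusted p under 0.05. In 9 of the 38 both tungstate arrays lay above and in 8 below the untreated ones, and 37.1% of all genes did not overlap. Those 2 genes were Slc43a3 (-0.48 ± 0.20) and Slc7a1 (-0.35 ± 0.14), and Slc36a2 differed by 0.40 ± 0.20. The interaction, which tests whether tungstate acted differently in the genotypes, gave 0 of 38, with 5 at an unadjusted p under 0.05, beside 3 of all genes (0.0224%). Slc1a1 had -0.99 ± 0.20 (limma adjusted p = 0.37), and Slc36a2, with the filter's limit given above, had -1.04 ± 0.28 (limma adjusted p = 0.613). The SE of an interaction was 0.21 in the median over the 38 genes.

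Marker levels moved with these groups. The mean of 14 macrophage markers, of which 12 were above the filter, was 7.44 to 7.54 in tungstate and 8.56 to 8.75 in untreated Irs2-/- islets, against 7.18 to 7.25 in tungstate and 7.14 to 7.41 in untreated wild-type islets. Of those 12, 11 rose between the untreated genotypes (limma, beside 8.27% of all genes). With tungstate in Irs2-/- islets 7 fell, beside 0.471% of all genes. The mean of 10 lymphocyte markers was 5.96 to 6.60 in tungstate and 7.34 to 8.18 in untreated Irs2-/- islets, against 5.39 to 6.23 in tungstate and 5.43 to 6.73 in untreated wild-type islets. In both lists the untreated Irs2-/- arrays were the highest, as they were for the 5 transporter genes that rose. Those 5 were picked because untreated Irs2-/- lay above untreated wild type, so no link is read from this order. The mean of 12 beta cell markers was 10.83 to 11.42 in tungstate and 10.59 to 10.76 in untreated Irs2-/- islets. In wild-type islets it was 11.74 to 11.86 on tungstate and 11.77 to 11.78 on water, so the untreated Irs2-/- arrays were the lowest. Of the 12, 8 fell between the untreated genotypes and 1 rose, Pcsk1 by 0.59 ± 0.14 (limma, beside 8.52% lower and 8.27% higher of all genes). Ins2 (-0.03), Iapp (0.04) and G6pc2 (-0.7) did not pass. Ins2 read 14.72 to 14.75 and Iapp 14.50 to 14.55, where the highest value of the data was 14.75, so these 2 probe sets may be near saturation. The 5 transporter genes that fell also had their lowest group mean there, but they were picked by that genotype difference. Other lists also held genes past limma's test for genotype. Among all tested genes 8.27% were higher and 8.52% lower on water, and 0.636% and 0.389% on tungstate. Of 7 tested duct markers 4 rose, with a list mean of 8.32 to 8.38 in untreated Irs2-/- and 7.95 to 7.98 in untreated wild-type islets. Of 5 delta and PP cell markers 2 fell on water, Sst by 1.35 ± 0.13, and 1 fell on tungstate, Sst by 1.14 ± 0.13 (limma adjusted p = 0.0199). Of 11 endothelial markers 2 rose on water and 2 on tungstate. Of 11 fibroblast and stellate cell markers 2 rose and 1 fell on water, and on tungstate 1 rose, with a median difference of 1.42. Of 18 acinar markers 1 rose on water and 0 on tungstate, with median differences of 1.49 and 1.14. The 18S control probe sets also read lower on the untreated Irs2-/- arrays (11.05 and 10.63) than on the untreated wild-type arrays (11.75 and 12.70). The part of these shifts in the transporter values was not tested.

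Genes that respond to amino acid supply were set beside the transporters. Of 23 tested ATF4 and amino acid response genes 4 fell and 0 rose between the untreated genotypes (limma, beside 8.52% lower and 8.27% higher of all genes), with a median of -0.22. Some others split between untreated Irs2-/- replicates 1 and 2: Atf3 read 9.56 and 5.82, Ddit3 9.72 and 8.41, and Nupr1 9.85 and 11.06. On untreated wild-type replicates 1 and 2 Atf3 read 6.70 and 5.86 and Ddit3 9.02 and 8.86. The list was therefore not lower throughout on both untreated Irs2-/- arrays. Atf5, a transcription factor induced with ATF4, fell by 1.66 ± 0.12 (limma adjusted p = 0.000691). The mitochondrial folate enzyme gene Mthfd2 fell by 1.33 ± 0.15, the asparagine synthetase gene Asns by 0.68 ± 0.12 and the cystathionine synthase gene Cbs by 0.66 ± 0.12. In treated mice Atf5 (-0.86 ± 0.12, limma adjusted p = 0.0265) and Cbs (-0.69 ± 0.12) were lower, beside 0.389% of all genes. Atf5 was the 1 gene of this list that tungstate raised in Irs2-/- islets (0.82 ± 0.12, limma adjusted p = 0.0351), beside 0.0224% of all genes. Atf4 itself differed by -0.33 ± 0.20 in untreated mice and its target Trib3 by -0.71 ± 0.31, and neither passed (limma adjusted p = 0.302 and 0.151).

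Of 18 tested aminoacyl-tRNA synthetase genes, which load tRNAs and many of which ATF4 regulates, 7 fell and 1 rose between the untreated genotypes (limma, beside 8.52% lower and 8.27% higher of all genes), with a median of -0.09. Those lower included Aars (-0.83 ± 0.12, alanine), Cars (-0.71 ± 0.18, cysteine), Iars (-0.63 ± 0.16, isoleucine) and Yars (-0.54 ± 0.14, tyrosine), while Hars (histidine) rose by 0.89 ± 0.15. In treated mice 0 of the 18 passed limma's test, where only 1.02% of all genes did. A match to TGATGNAA was found for 8 of 25 genes with a promoter in the response list and 5 of 12 in the synthetase list. The share was 4.51% of all 27025 genes with a promoter. The response list was chosen around ATF4, so its share of matches is no result about these islets. Of 14 tested amino acid carrier genes outside the 7 families 0 passed in untreated mice, beside 16.8% of all genes, with a median of 0.13.

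**Figure D3:**
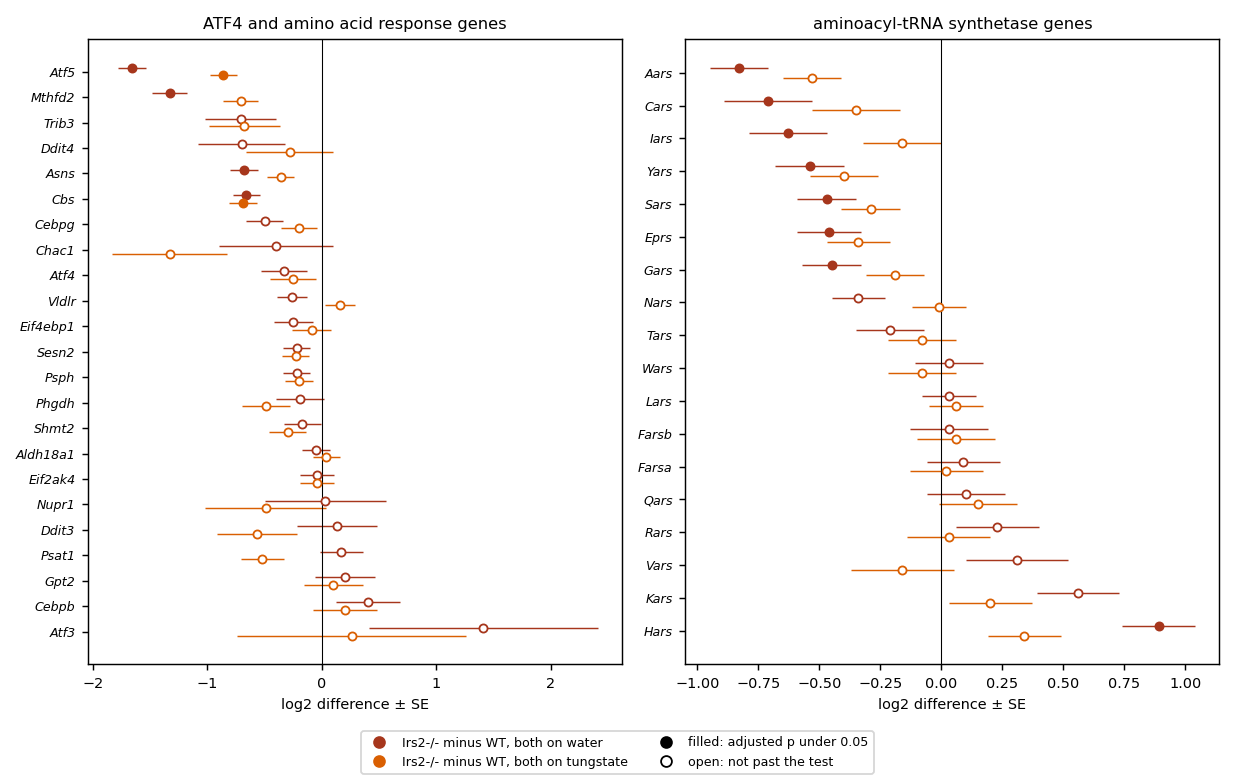
Log2 difference ± SE between Irs2-/- and wild-type islets on water (dark red) and on tungstate (orange) for the tested ATF4 and amino acid response genes (left) and aminoacyl-tRNA synthetase genes (right), with filled points at a limma adjusted p under 0.05. On water 4 genes on the left and 7 on the right are lower and Hars is higher, and on tungstate Atf5 and Cbs remain filled.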

How the data were processed

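Total RNA from islets was extracted with an RNeasy kit and biotin-labelled, per the labels' protocols. The authors deposited log2 expression per probe set, summarised with RMA in the affy package under R 2.7.0, per the submitters' processing notes. All 8 columns were used. No source used here gives array batches or scan dates. After 64 controls were set aside, 34945 of 45037 probe sets had 1 gene in the platform's list. The brightest of a gene's probe sets stood for it, and genes whose mean over all arrays was under the 40th percentile (5.27) were left out. This filter used no group labels, but a gene high in a single group can pass through that group, as Slc36a2 did. Means of 4 groups were fitted in limma 3.58.1 (R 4.3.3) with empirical Bayes moderation (4 residual and 3.89 prior degrees of freedom), with 6 contrasts, Benjamini-Hochberg adjustment over 13369 genes and a threshold of 0.05. The number of arrays limits the precision. Same-numbered samples deviated together by r = -0.07 to 0.42, and the labels do not pair them, so no block was used. Members, lists and tests were chosen with earlier results of these data known. Named were Irs2, each transporter gene past a test, 20 fixed members, and up to 4 genes a list with the smallest p; others are named after their values were seen. The fit was tried on 10 simulated data sets for Irs2-/- against wild type untreated, with 200 of 13369 genes changed. It recovered 71.3% of changes of 1 and 95.1% of changes of 2 (log2), and 4.64% of its calls were false. The simulated noise was independent, whereas the real untreated arrays numbered 1 deviated together (r = 0.42) and 16.8% of all genes passed. These rates therefore need not hold for the real arrays. Alternatives were no filter, the 60th percentile, the replicate block, quantile normalization, median centring, averaging a gene's probe sets, the acinar level as a covariate, a variance trend with robust moderation, an adjusted p under 0.1, only the arrays compared, and leaving out each array. Leaving out 2 arrays together was chosen after seeing the data.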

Additional observations from a re-analysis of the deposited data

How the results depend on the processing

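For the 19 named tested transporter genes no difference past the threshold changed sign: of 2105 recomputed values 2036 kept their side, 56 lost and 13 gained it. Most of the 2105 were not past the threshold in the main fit, so the 2036 do not measure how stable the calls are. Between the untreated genotypes Slc38a5 and Slc1a5 kept their calls under all 19 and 18 other settings. Losses of the other calls ran from 1 of 19 settings (Slc7a5, untreated genotypes) to 11 of 19 (Slc38a5, treated Irs2-/- against untreated wild type). The count of transporter genes between the untreated genotypes was 10 and fell to 6 with the 60th percentile filter, which tested 26 of them, and to 2 without both untreated arrays numbered 1. Leaving out single arrays gave 6 to 10, with 6 without untreated wild-type replicate 1 or 2 and without untreated Irs2-/- replicate 1. Where 1 array was left out, the lone array of its group was assumed to vary like the others. Between the untreated genotypes the count also dropped to 7 (3 higher, 4 lower) when the fit included acinar content. It was 8 (4 higher, 4 lower) when only the arrays compared were fitted. In treated mice the count of 1 was 2 with quantile normalization or the acinar covariate, 3 at an adjusted p under 0.1 and 0 to 4 without single arrays (4 without tungstate Irs2-/- replicate 2, 0 without replicate 1 or either tungstate wild-type array). For tungstate in Irs2-/- islets the count of 1 was 0 with the 60th percentile filter, the mean of probe sets, only the arrays compared and without both untreated arrays numbered 1, 2 at an adjusted p under 0.1, and 0 to 1 without single arrays (0 without either tungstate array of either genotype or without untreated Irs2-/- replicate 1). Between Irs2-/- islets on tungstate and wild-type islets on water the count of 1 was 2 with the 60th percentile filter, median centring or the mean of probe sets, 3 at an adjusted p under 0.1, 0 with the acinar covariate, only the arrays compared and without both untreated arrays numbered 1, and 0 to 4 without single arrays (4 without tungstate Irs2-/- replicate 2, 0 without any other array). With the variance trend it was again 1, but Slc7a5 (-0.74, adjusted p = 0.033) in place of Slc38a5. Tungstate in wild type and the interaction stayed at 0 in every setting run. With the replicate block the counts were the same as without it: 10 and 1 for genotype on water and on tungstate, 1 and 0 for tungstate in Irs2-/- and wild-type islets, 1 for Irs2-/- on tungstate against wild type on water, and 0 for the interaction. Fewer genes or fewer arrays entered several of these fits; the cause of the other changes was not tested.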

Other observations

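On plain water, enzyme genes that handle the same amino acids were both higher and lower in Irs2-/- than in wild-type islets, with 6 of 22 tested higher and 4 lower (limma, beside 8.27% and 8.52% of all genes). Gldc, of the glycine cleavage system, averaged 6.87 in untreated Irs2-/- islets and 5.57 in wild-type islets (2.46-fold, limma adjusted p = 0.00135), and tungstate lowered it in Irs2-/- islets by 0.89 ± 0.12 (limma adjusted p = 0.0281). The arginase gene Arg1 (1.66 ± 0.32) and the ornithine aminotransferase gene Oat (1.61 ± 0.30) were higher, on the arrays where the arginine carrier Slc7a2 was lower. Abat, which breaks down GABA, and Gad1, which makes it from glutamate, were lower (-0.85 ± 0.11 and -3.32 ± 0.58). Glutamine synthetase, Glul, averaged 10.79 in untreated Irs2-/- and 11.47 in untreated wild-type islets (-0.68 ± 0.15). Arg1 is also a gene of macrophages and macrophage markers were higher on these Irs2-/- arrays, whose part in these values was not tested.

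Of 31 tested genes of amino acid sensing and mTORC1, 5 fell and 1 rose between the untreated genotypes (limma, beside 8.52% and 8.27% of all genes). Among those that fell were Flcn and its partners Fnip1 and Fnip2, which together act on the Rag GTPases at the lysosome, at -1.04 ± 0.23, -1.05 ± 0.18 and -1.19 ± 0.13 (limma adjusted p = 0.0229, 0.0104 and 0.00257). Sesn3, a sestrin, and Seh1l, of the GATOR2 complex, were lower by less (-0.57 and -0.55). In treated mice 0 of the 31 passed limma's test, where only 1.02% of all genes did.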
